A study of Gallus gallus with 12 samples.

Results

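The BCL2 family sets whether a cell commits to apoptosis at the mitochondrion, and 8 of its genes were followed here through RNA-seq of chicken DT40 cells: *BCL2*, *BCL2L1*, *BCL2A1* and *MCL1* on the anti-apoptotic side and *BAK1*, *BOK*, *BID* and *BMF* on the pro-apoptotic side. They were chosen by gene symbol from the 24356 genes of the deposited tables, and all 8 were present. DT40 is a B cell line derived from a chicken bursal lymphoma and is widely used for gene disruption. Polyadenylated RNA was sequenced from 4 lines with 3 libraries each: wild type, *timeless*, *ddx11* and *fancj*. The mutants lack, respectively, a component of the fork protection complex, a helicase that works with it, and a related helicase, all of which the study examined for their part in replicating DNA that can fold into G-quadruplexes. The question put to these libraries was how gene expression differed between each mutant and wild type.

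The study made *timeless* and *ddx11* knockouts by CRISPR-Cas9 from single sorted cells. They carry disruptions on both alleles, in exon 1 of *TIMELESS* and exon 4 of *DDX11*. Its assays also included a *ddx11* line made by conventional gene targeting. The libraries labelled *fancj* come from a *FANCJ* knockout line for which the labels do not describe the method of disruption. The labels give no drug treatment, and all lines shared 1 culture medium. Which clone of each mutant was sequenced is not given in the sources used here. If a mutant's 3 libraries came from 1 clone, p-values measure the spread within that clone, and what is peculiar to that clone and what the disruption did cannot be told apart.

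The libraries held between 13406041 and 50160512 expected counts. As a check of the labels, *TIMELESS* RNA was lower in *timeless* (log2 fold change -0.78 ± 0.15 SE, adjusted p = 0.018) and *DDX11* RNA was lower in *ddx11* (-1.30 ± 0.24, adjusted p = 0.026). *TIMELESS* does not set *timeless* apart from the *fancj* label, since it stood at 24.27, 21.39 and 22.57 TPM in *timeless* and at 30.48, 21.29 and 8.88 TPM with that label (-1.04 ± 0.30 against wild type, adjusted p = 0.12). *BRIP1*, which encodes FANCJ, stood at 7.81, 8.47 and 1.23 TPM in the libraries labelled *fancj* against 8.52, 5.16 and 6.59 TPM in wild type (-0.32 ± 0.53, adjusted p = 0.79), so RNA at this gene did not separate replicates 1 and 2 of that label from wild type. A gene can be inactive while its RNA remains, and the label is therefore used as given. Of the B cell markers, *CD79B* ranged from 121.94 to 461.49 TPM and *PAX5* from 26.44 to 162.17 TPM over the 12 libraries. Of 14 markers of other cells 11 were found. *HBA1* was at 0 in all libraries and *HBZ*, *COL3A1*, *CD4*, *CD3E* and *CD14* reached at most 1.88 TPM, while *CD3D* was present throughout, at 50.47 to 215.41 TPM. Some of these markers moved with a mutant: *CD3D* was lower in *ddx11* (-1.43, adjusted p = 0.0091), and with the *fancj* label the collagen gene *COL1A1* was lower (-1.78, adjusted p = 0.037) and the macrophage gene *CSF1R* higher (0.54, 3.67 and 1.09 TPM against 0, 0.07 and 0 TPM in wild type, adjusted p = 0.045). *CD3D* ranged from 155.03 to 215.41 TPM in wild type, from 51.15 to 120.69 TPM in *timeless* and from 52.73 to 85.03 TPM with the *fancj* label. DESeq2 called it in each mutant, while edgeR did not call it in *timeless* (adjusted p = 0.078) or with the *fancj* label (0.14). *COL1A2* stood at 22.6 TPM in replicate 1 of that label and at 1.79 and 0.76 TPM in the others, and *PECAM1* ranged from 1.61 to 6.15 TPM over all libraries. The markers of other cells summed to between 167 and 229 TPM in wild type, between 70.2 and 112 TPM in *ddx11*, between 63.7 and 136 TPM in *timeless* and between 64.4 and 90.2 TPM with the *fancj* label. Most of this sum was *CD3D* in every library. The summed B cell markers lay between 1053 and 1727 TPM in wild type, between 1132 and 1399 TPM in *ddx11*, between 806 and 1307 TPM in *timeless* and between 487 and 1125 TPM in the libraries labelled *fancj*, and the part of either list in the results below was not tested.

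Apoptosis through the mitochondrion depends on contacts between members of this family. BAK1 and BOK are effectors that can permeabilise the outer mitochondrial membrane and release cytochrome c. BCL2, BCL2L1 (BCL-xL), MCL1 and BCL2A1 (BFL-1) hold effectors such as BAK1 and their activators in check. BID and BMF belong to the BH3-only proteins: BID, cut by caspase-8 in mammals, carries the signal of death receptors to the mitochondrion, and BMF binds and neutralises anti-apoptotic members. In mammalian B cells *BCL2* is known as the oncogene of follicular lymphoma, and the gene for BCL-xL was first cloned from chicken lymphoid cells. These roles are known at the protein level, and the libraries measured RNA alone.

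The promoter of human *BCL2* holds a G-rich stretch that folds into a G-quadruplex, and the study used an oligonucleotide of it as a substrate in its biochemical assays. It is printed because it ties 1 member of the family to the structure the study is about. It has 26 bases, and the capitals mark the 4 runs of 3 G, which are separated by loops of 3, 7 and 1 bases.
Bcl2Mid: ataGGGcgcGGGaggaaggGGGcGGG
The sequence is human. The promoter of chicken *BCL2* was not analysed here, and nothing about it follows from this oligonucleotide.

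In wild-type DT40 cells *BCL2L1* was the dominant member. Levels are in TPM, the deposited unit that scales each gene by its transcript length and each library to the same total, so that genes can be set beside each other. *BCL2L1* (ENSGALG00000006211) stood at 299.44, 373.63 and 386.00 TPM in wild-type replicates 1, 2 and 3, the order in which the libraries of each line are given throughout, and its mean was above that of 97.55% of all genes detected. *MCL1* (ENSGALG00000044383) came next at 117.07, 153.92 and 91.50 TPM. No *MCL1* value reached the *BCL2L1* value of any wild-type library.

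The effectors and BID followed. *BOK* (ENSGALG00000005772) stood at 99.99, 63.30 and 76.57 TPM in wild type, *BID* (ENSGALG00000013039) at 70.44, 49.96 and 56.09 TPM, and *BAK1* (ENSGALG00000031493) at 29.73, 20.19 and 22.89 TPM. *MCL1* and *BOK* overlapped in level, as did *BOK* and *BID*, whereas *BAK1* lay below both *BOK* and *BID* in every wild-type library. Between these effectors the one with more RNA was therefore *BOK*, at 79.95 ± 18.6 TPM (SD, n = 3) against 24.3 ± 4.92 TPM for *BAK1*. The family gene *BAX* was not found under its symbol, so its level is not part of this comparison.

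The remaining members were low. *BCL2* (ENSGALG00000012885) stood at 1.85, 2.35 and 2.28 TPM in wild type, from 47, 228 and 74 counts, and its mean lay above that of 40.58% of detected genes. *BMF* (ENSGALG00000014537) stood at 0.93, 0.39 and 0.79 TPM, from 12, 17 and 14 counts. *BCL2A1* (ENSGALG00000006511) had no count in 9 of the 12 libraries and 4 counts in all, in *timeless* replicates 1 and 2 and *ddx11* replicate 1. At these depths 3 counts of *BCL2A1* correspond to between 0.0619 and 0.258 TPM, which is the upper limit that a count of 0 allows, for counting error only. *BCL2A1* was not tested in any comparison, since it did not reach 1 TPM in any line, and 7 of the 8 members were.

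**Figure D1:**
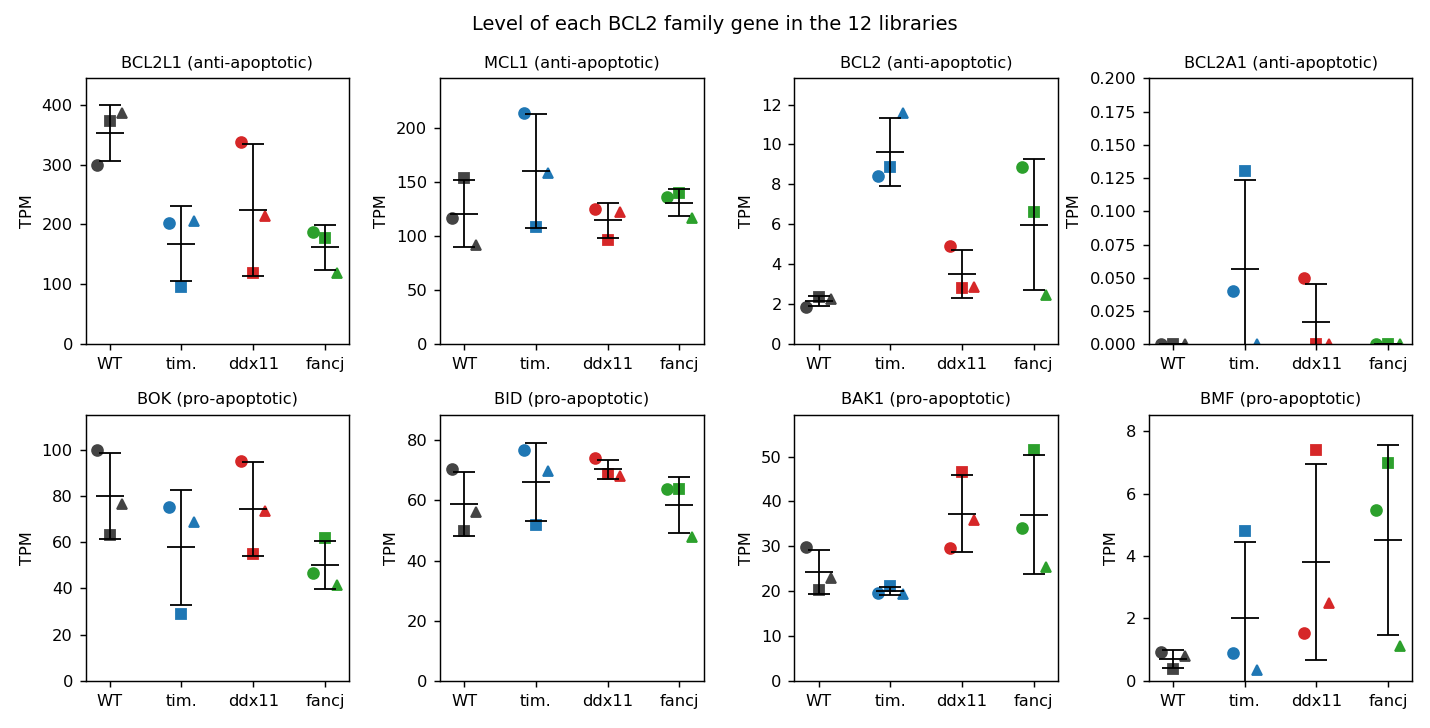
Level of each BCL2 family gene in TPM (vertical axis, a separate scale in each panel, starting at 0) in wild type (WT), *timeless* (tim.), *ddx11* and the libraries labelled *fancj*. Each point is 1 library (circle replicate 1, square replicate 2, triangle replicate 3), the middle bar is the mean and the outer bars 1 SD, drawn only above 0. *BCL2* lies at 8.43 to 11.57 TPM in *timeless* and at 1.85 to 2.35 TPM in wild type, and *BCL2L1* in wild type lies above every library of *timeless* and of the *fancj* label.

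Each mutant was then compared with wild type. Expected counts were tested across all genes with edgeR, and a gene was called altered at an adjusted p under 0.05. The 3 comparisons share the wild-type libraries and are not independent of one another. In bulk RNA, fewer cells that express a gene and less RNA per cell cannot be told apart. In *timeless*, 1 of the 7 tested members was called, *BCL2*, where 8.20% of all 11653 genes tested were called. In *ddx11* none of the 7 was called by edgeR, where 2.62% of all genes were; 3 members had an unadjusted p under 0.05, as did 11.1% of all genes, and DESeq2 called 1, *BMF*, and 4.77% of all genes. With the *fancj* label 1 member was called, *BCL2L1*, where 4.28% of all genes were. There 5 members had an unadjusted p under 0.05, as did 16.9% of all genes, and DESeq2 called 3, and 11.2% of all genes. In *timeless* 2 members had an unadjusted p under 0.05, as did 21.7% of all genes. DESeq2 called 2 there, and 12.9% of all genes. Taken without sign, the log2 fold changes of the tested members had a median of 0.452 in *timeless*, 0.574 in *ddx11* and 0.616 in the libraries labelled *fancj*, beside 0.29, 0.188 and 0.362 for all genes tested. These medians are a description with no test. The members were chosen with earlier results of these data known, and *BMF* passed the TPM limit only through mutants in which it was high.

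*BCL2* rose in *timeless*. Its levels there were 8.43, 8.87 and 11.57 TPM, from 383, 271 and 415 counts, against the wild-type values of 1.85 to 2.35 TPM. Every *timeless* library stood above every wild-type library, as was the case for 11.8% of all genes tested. The change was 4.65-fold (log2 fold change 2.22 ± 0.26 SE, 95% interval 1.62 to 2.82, adjusted p = 0.0025), and 382 of the 11653 genes tested had a larger log2 fold change. The call held under all 13 alternatives run for this fold change, with an adjusted p between 3e-12 and 0.017.

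In *ddx11* the levels of *BCL2* were 4.91, 2.83 and 2.85 TPM. All 3 lay above wild type, replicates 2 and 3 only slightly, and 10.7% of all genes tested were higher in every *ddx11* library than in any wild-type library. The fold change of 1.52 did not pass the test (0.61 ± 0.27, 95% interval -0.01 to 1.23, adjusted p = 0.46). In the libraries labelled *fancj* it stood at 8.88, 6.64 and 2.44 TPM. Replicates 1 and 2 were within or near the range of *timeless*, while replicate 3, the library with the lowest *BRIP1*, was barely above the highest wild-type library. All 3 were thus higher than wild type, as were 14.1% of all genes tested. Replicate 3 of the label also stood apart over all genes. Its Spearman correlation of TPM with replicate 1, 0.930, was the lowest between libraries of a line. The 2.65-fold difference did not pass the test (1.40 ± 0.39, 95% interval 0.49 to 2.32, adjusted p = 0.11) and did pass without replicate 3 of the *fancj* label (1.68, adjusted p = 0.017), with DESeq2 (adjusted p = 0.01) and with all 12 libraries in 1 fit (adjusted p = 0.024).

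The *BCL2* change in *timeless* also exceeded that in *ddx11* when these mutants were compared directly, by 3.07-fold (1.62 ± 0.28, 95% interval 0.98 to 2.26, adjusted p = 0.015). No *BCL2* value of *ddx11* reached the range of *timeless*, a separation seen for 7.64% of all genes tested in this direction. The call was lost without *timeless* replicate 3 (1.39, adjusted p = 0.055), without *ddx11* replicate 2 (1.5, adjusted p = 0.055) and without *ddx11* replicate 3 (1.53, adjusted p = 0.087). *BCL2* in the libraries labelled *fancj* could not be separated from *timeless* (-0.83 ± 0.38, 95% interval -1.72 to 0.06, adjusted p = 0.38) or from *ddx11* (0.79 ± 0.40, -0.14 to 1.71, adjusted p = 0.43).

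The rise of *BCL2* in *timeless* was opposite in sign to the change of most genes near it, a comparison chosen after values had been seen. By the gene order of the GRCg7b annotation, used here for order only, *BCL2* lies on a chromosome where 87.1% of the 660 genes tested had a negative log2 fold change in *timeless* and 28.0% were called lower, compared with 2.16% of genes elsewhere. The median log2 fold change of that chromosome was -0.57, against 0.004 elsewhere. Only 12 of its genes were called higher, and 6 of its genes had a larger log2 fold change than *BCL2*. Of the 10 tested genes closest in order, 5 on each side, 9 had a negative value. *KDSR*, next to *BCL2* on one side and an enzyme of sphingolipid synthesis, was called lower (-0.81, adjusted p = 0.022), while *PHLPP1*, next on the other side and a phosphatase of AKT, was not called (-0.94, adjusted p = 0.085). Also called lower were *VPS4B* (-0.68, adjusted p = 0.023), *GMDS* (-0.65, adjusted p = 0.028) and *DROSHA* (-0.70, adjusted p = 0.028), and the only neighbour called higher was *BASP1* (2.16, adjusted p = 0.018). In *ddx11* and in the libraries labelled *fancj* the median of the same chromosome was -0.03 and 0.12. The chromosome of *BCL2L1* had a median of 0.01 in *timeless*.

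**Figure D2:**
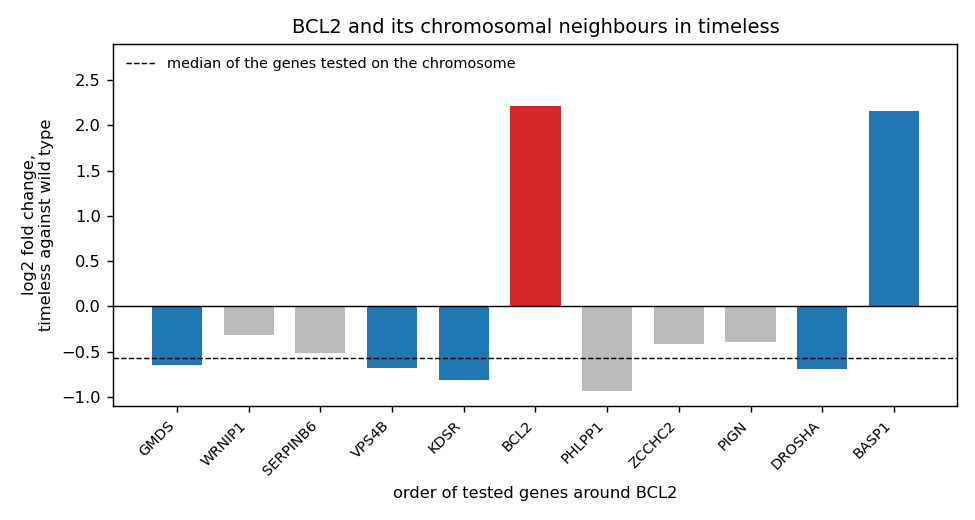
Log2 fold change in *timeless* against wild type (vertical axis) of *BCL2* (red) and of the 5 tested genes on each side of it, in the gene order of the GRCg7b annotation (horizontal axis, order only). Blue bars were called altered, grey bars were not, and the dashed line is the median of the 660 tested genes of the chromosome, -0.57. *BCL2* at 2.22 and *BASP1* at 2.16 stand above 0 and the other 9 genes below it.

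*BCL2L1*, the most abundant member in wild type, fell in the libraries labelled *fancj* and did not pass the test in the other mutants. With the *fancj* label it stood at 187.81, 177.79 and 119.46 TPM against 299.44 to 386.00 TPM in wild type. All 3 lay below every wild-type library, as did 8.82% of all genes tested. It fell to 48.0% of wild type (log2 fold change -1.06 ± 0.17, 95% interval -1.47 to -0.65, adjusted p = 0.022). This call was close to the threshold: it was lost with the replicate number as a block (adjusted p = 0.055), with all 12 libraries in 1 fit (0.059), without wild-type replicate 1 (0.051), 2 (0.13) or 3 (0.14) and without replicate 2 of the *fancj* label (0.089), while the log2 fold change stayed between -1.17 and -0.999 whichever library was left out.

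In *timeless*, *BCL2L1* stood at 202.81, 95.41 and 205.74 TPM. These libraries too lay below all of wild type, as did 15.7% of all genes tested, and replicate 2 was the lowest of all 12 libraries. At 50.6% of wild type the difference did not pass the test (-0.98 ± 0.27, 95% interval -1.61 to -0.36, adjusted p = 0.066). Without *timeless* replicate 2 it was smaller and passed (-0.72, adjusted p = 0.03), and it also passed with no TPM limit (adjusted p = 0.024) and with DESeq2 (adjusted p = 0.0077). In *ddx11* the values were 338.23, 118.19 and 213.86 TPM, so that replicate 1 lay within the wild-type range (-0.71 ± 0.28, 95% interval -1.34 to -0.09, adjusted p = 0.35). Between mutants, *BCL2L1* differed by -0.08 in the *fancj* label against *timeless* (95% interval -0.80 to 0.64), an interval that leaves room for a difference in either direction. The expected counts of *BCL2L1* were not whole numbers in 11 of the 12 libraries, as RSEM gives where a read fits more than 1 gene or transcript, and gene-level values do not separate its isoforms.

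*MCL1*, a short-lived protein that many cells need to survive, was not called in any mutant against wild type. Its levels were 213.73, 107.95 and 158.67 TPM in *timeless* and 125.27, 96.18 and 122.13 TPM in *ddx11*. They were 136.05, 140.03 and 117.04 TPM in the libraries labelled *fancj*. The ranges of all 3 mutants overlapped the wild-type range of 91.50 to 153.92 TPM. In *timeless* its log2 fold change was 0.45 (95% interval -0.16 to 1.07), against -0.15 (-0.62 to 0.32) in *ddx11* and 0.17 (-0.43 to 0.76) in the libraries labelled *fancj*.

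On the pro-apoptotic side no member was called against wild type, although *BMF* had the largest fold differences of the 7 tested members in *ddx11* and in the libraries labelled *fancj*. At a wild-type mean of 0.703 TPM it entered the tests only through the mutants in which it was high, and it drops out of the comparisons with wild type where 1 TPM is asked of both lines. *BMF* stood at 1.53, 7.40 and 2.49 TPM in *ddx11*, from 33, 188 and 40 counts, and at 5.46, 6.97 and 1.12 TPM in the libraries labelled *fancj*, from 126, 79 and 39 counts. Every library of both mutants lay above the wild-type maximum of 0.93 TPM, replicate 3 of the *fancj* label by the least, as did 10.7% of all genes tested in *ddx11* and 14.1% with the *fancj* label. The difference was 5.10-fold in *ddx11* (2.35 ± 0.62, 95% interval 0.94 to 3.77, adjusted p = 0.11) and 6.58-fold in the libraries labelled *fancj* (2.72 ± 0.61, 1.28 to 4.16, adjusted p = 0.056).

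Both differences of *BMF* sat beside the threshold. In *ddx11* the gene was called with no TPM limit (adjusted p = 0.022), with DESeq2 (0.012) and without *ddx11* replicate 1 (0.048), and without replicate 2 the log2 fold change was 1.60 (adjusted p = 0.39). With the *fancj* label it was called with no TPM limit (0.044), with filterByExpr (0.048), with DESeq2 (0.0007) and without replicate 3 (3.09, adjusted p = 0.018). In *timeless*, *BMF* stood at 0.90, 4.79 and 0.36 TPM, from 22, 78 and 7 counts, so that a single library, replicate 2, was high and the others overlapped wild type (1.70 ± 0.91, 95% interval -0.37 to 3.77, adjusted p = 0.33).

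*BAK1* separated *timeless* from the other mutants more than any mutant from wild type. The *timeless* libraries held 19.57, 21.06 and 19.43 TPM, the *ddx11* libraries 29.59, 46.51 and 35.79 TPM and those labelled *fancj* 34.14, 51.50 and 25.42 TPM. All *timeless* libraries lay below all libraries of *ddx11*, as did 16.7% of all genes tested, and below all of the *fancj* label, which was the case for 13.6%, and each mutant overlapped the wild-type range of 20.19 to 29.73 TPM. Against wild type the log2 fold changes were -0.21 (adjusted p = 0.58), 0.57 (adjusted p = 0.36) and 0.61 (adjusted p = 0.23). Compared directly, *BAK1* was at 58.5% of *ddx11* in *timeless* (-0.77 ± 0.23, 95% interval -1.29 to -0.26, adjusted p = 0.093).

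Same-numbered libraries of *timeless* and *ddx11* deviated together, with correlations of 0.264 to 0.464 in all 3 pairs, so that the fit with the replicate number as a block stands beside this comparison. With the block 3 members were called between *timeless* and *ddx11* in place of 1, where 13.9% of all genes were called with it and 5.12% without it: *BCL2* (adjusted p = 0.0069), *BAK1* (-0.74, adjusted p = 0.018) and *MCL1*, which was higher in *timeless* (0.57, adjusted p = 0.038, against 0.21 without the block). Between the *fancj* label and *timeless* none of the 7 members was called by edgeR, where 0.850% of all genes were. There, 1 member had an unadjusted p under 0.05, as did 14.5% of all genes, and DESeq2 called 1 member, *BAK1* (0.83, adjusted p = 0.02), and 7.08% of all genes. Between the *fancj* label and *ddx11* the number was 0 of 7 by edgeR, by DESeq2 and at an unadjusted p under 0.05, against 0.782%, 7.03% and 14.0% of all genes.

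*BOK* was at 75.28, 29.10 and 68.84 TPM in *timeless* and at 95.17, 54.76 and 73.41 TPM in *ddx11*. The libraries labelled *fancj* held 46.87, 61.91 and 41.62 TPM. Only these lay wholly below wild type (63.30 to 99.99 TPM), replicate 2 just so, as did 8.82% of all genes tested, and the difference did not pass the test (-0.62 ± 0.22, 95% interval -1.14 to -0.09, adjusted p = 0.22). In *timeless* the log2 fold change was -0.44 (95% interval -1.23 to 0.35) and in *ddx11* -0.17 (-0.62 to 0.28).

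*BID* was the steadiest expressed member. Over the 12 libraries it ranged from 47.84 to 76.83 TPM, with a coefficient of variation of 15.4%, against 44.2% for *BCL2L1* and 25.1% for *MCL1*. Its log2 fold changes were 0.22 in *timeless* (95% interval -0.21 to 0.66), 0.19 in *ddx11* (-0.15 to 0.52) and 0.01 in the libraries labelled *fancj* (-0.46 to 0.48). These intervals leave out a doubling in either direction, which is 1 on the log2 scale.

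**Figure D3:**
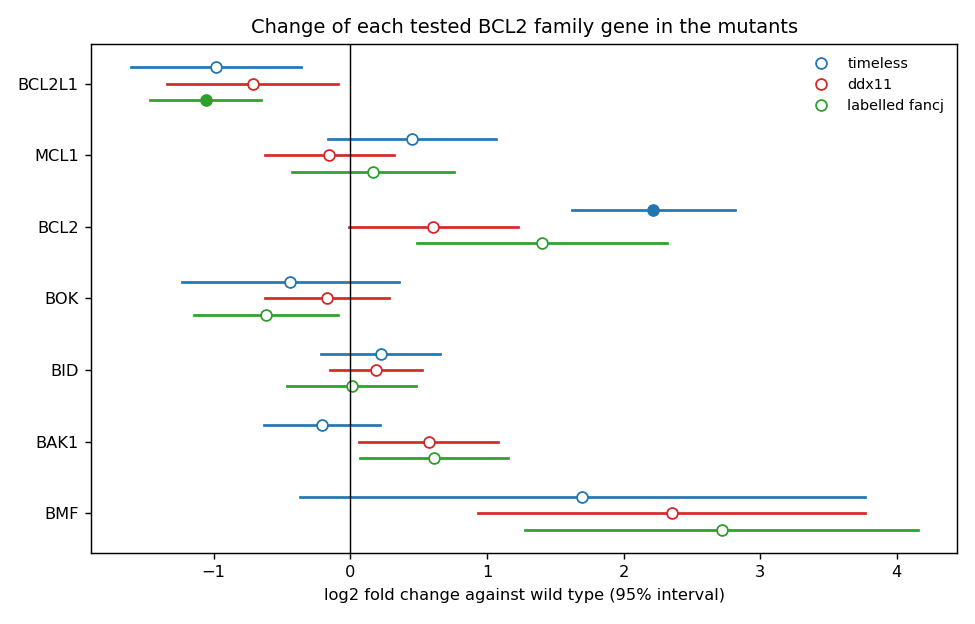
Log2 fold change against wild type (horizontal axis) of the 7 tested members in *timeless* (blue), *ddx11* (red) and the libraries labelled *fancj* (green), with 95% intervals from the edgeR test. Filled points were called altered at an adjusted p under 0.05: *BCL2* in *timeless* at 2.22 and *BCL2L1* in the libraries labelled *fancj* at -1.06. *BMF* has the widest intervals.

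The make-up of the anti-apoptotic side separated *timeless* and the *fancj* label from wild type, and its ratio to the pro-apoptotic side did not. *BCL2L1* made up 71.6%, 70.5% and 80.5% of the summed TPM of the 4 anti-apoptotic members in wild type. It made up 47.7%, 44.9% and 54.7% in *timeless* and 56.4%, 54.8% and 50.0% in the libraries labelled *fancj*, below every wild-type library, whereas *ddx11* at 72.2%, 54.4% and 63.1% overlapped wild type. The share of *MCL1* was 28.0%, 29.0% and 19.1% in wild type and 50.3%, 50.8% and 42.2% in *timeless*. A share rises when another member falls, and the TPM of *MCL1* itself overlapped wild type. The ratio of *BCL2L1* to *MCL1* in TPM was 2.56, 2.43 and 4.22 in wild type and 0.949, 0.884 and 1.3 in *timeless*, so that *MCL1* and *BCL2L1* were at similar levels there. It was 2.7, 1.23 and 1.75 in *ddx11* and 1.38, 1.27 and 1.02 in the libraries labelled *fancj*.

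*BCL2* stayed a small part of the anti-apoptotic RNA in each line. Its share was 0.442%, 0.443% and 0.475% in wild type and 1.98%, 4.18% and 3.08% in *timeless*. In wild type there were 162, 159 and 169 *BCL2L1* transcripts for each *BCL2* transcript, on the TPM scale. The ratio was 68.9, 41.8 and 75.0 in *ddx11*, 24.1, 10.8 and 17.8 in *timeless* and 21.1, 26.8 and 49.0 in the libraries labelled *fancj*. No mutant library overlapped wild type in this ratio. It is given as a description with no test, and how often ratios of other genes separate in this way was not examined. In *ddx11* edgeR called neither *BCL2* nor *BCL2L1* against wild type, and the TPM of *BCL2L1* itself overlapped wild type. Of this pair, only *BCL2* was called in *timeless* and only *BCL2L1* with the *fancj* label.

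The summed anti-apoptotic TPM exceeded the summed pro-apoptotic TPM in all 12 libraries. The ratio of the sums was 2.08, 3.96 and 3.07 in wild type, 2.34, 1.22 and 1.88 in *ddx11*, 2.46, 1.99 and 2.37 in *timeless* and 2.21, 1.76 and 2.06 in the libraries labelled *fancj*. Wild-type replicates 2 and 3 stood above every mutant library, but wild-type replicate 1 lay within the range of each mutant. On the log2 scale the mean was 1.55 ± 0.467 (SD, n = 3) in wild type, 1.18 ± 0.164 in *timeless*, 0.81 ± 0.476 in *ddx11* and 1.00 ± 0.169 in the libraries labelled *fancj*. The differences of -0.37, -0.74 and -0.55 are given as a description with no test. That of *timeless* changed sign, to 0.29, when each side was averaged as log2(TPM + 1) in place of being summed, which gives *BCL2* the same weight as *BCL2L1*.

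On the pro-apoptotic side *BOK* held 49.7%, 47.3% and 49.0% of the summed TPM in wild type, *BID* 35.0%, 37.3% and 35.9% and *BAK1* 14.8%, 15.1% and 14.6%. The libraries labelled *fancj* had shares of *BOK* of 31.2%, 33.6% and 35.9% and shares of *BAK1* of 22.7%, 27.9% and 21.9%. Neither range overlapped wild type, but shares are parts of 1 sum, so that a fall of 1 member raises the share of another. In TPM *BAK1* overlapped wild type, and neither gene was called by edgeR (adjusted p = 0.22 for *BOK* and 0.23 for *BAK1*). *BMF* held at most 4.49% in any library.

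**Figure D4:**
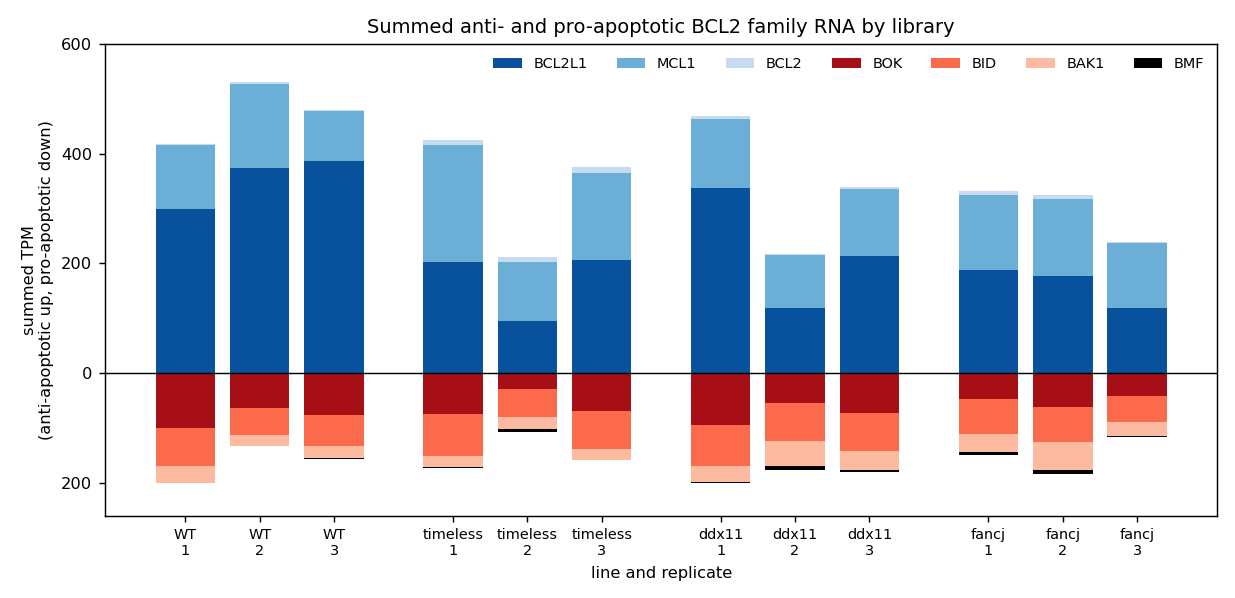
Summed TPM of the BCL2 family genes in each library, anti-apoptotic members stacked above 0 (blues) and pro-apoptotic members stacked below 0 (reds and black), by line and replicate. *BCL2A1* is left out because it reached at most 0.13 TPM. For the members drawn, the upper stack exceeds the lower one in every library. *BCL2L1* takes up 70.5% to 80.5% of the upper stack in wild type and 44.9% to 54.7% in *timeless*.

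Libraries of a line differed in several members at once, though not in the same way in each line. Each of the replicates numbered 2 in *timeless* and *ddx11* had the highest *BMF* (4.79 and 7.40 TPM) and the lowest *BCL2L1* (95.41 and 118.19 TPM), *MCL1* and *BOK* of its line. With the *fancj* label the library with the lowest *BCL2L1*, replicate 3 at 119.46 TPM, also had the lowest *BMF*, at 1.12 TPM, and in wild type the library with the lowest *BCL2L1*, replicate 1 at 299.44 TPM, had the highest *BOK*, at 99.99 TPM. Across the 12 libraries, which include the differences between lines, *BCL2L1* and *BOK* varied together (Pearson r of log2(TPM + 1) = 0.80), as did *BAK1* and *BMF* (0.768), while *BCL2L1* and *BMF* varied in opposite directions (-0.611).

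For each member above a mean of 10 TPM, the 2 genes with the most similar pattern over the 12 libraries were looked up among 6324 genes. They were *RRM2* (r = 0.964) and *TRABD* (0.953) for *BCL2L1*, *RAD18* (0.938) and *CENPT* (0.927) for *BOK*, and *NKIRAS2* (0.93) and *HACL1* (0.91) for *BAK1*. *BID* was closest to the B cell adaptor gene *BLNK* (0.907) and to *IKBKB* (0.901), and *MCL1* to *DUSP4* (0.824) and *SRSF5* (0.811). These coefficients are descriptions over libraries of 4 lines and carry no test.

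Of 15 further family genes looked for, 9 were found under their symbol, and *BAX*, *BAD*, *BBC3*, *BCL2L2*, *BCL2L12* and *HRK* were not analysed here. The sums also leave out the 9 that were found, so neither summed side stands for the whole family. None of the 7 or 8 tested in each comparison with wild type was called by edgeR. At an unadjusted p under 0.05 there were 1, 1 and 2 such genes in *timeless*, *ddx11* and the *fancj* label, and DESeq2 called 1 in each. Of all genes, 21.7%, 11.1% and 16.9% had an unadjusted p under 0.05 and DESeq2 called 12.9%, 4.77% and 11.2%.

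*PMAIP1*, which encodes the MCL1-binding BH3-only protein NOXA, stood at 50.00, 45.85 and 48.23 TPM in wild type, 81.80, 192.77 and 51.87 TPM in *timeless* and 87.85, 134.89 and 76.26 TPM in *ddx11*. Both mutants lay above wild type in every library, *timeless* replicate 3 only slightly, as did 11.8% of all genes tested in *timeless* and 10.7% in *ddx11*. DESeq2 called both, while edgeR gave 1.24 ± 0.42 (adjusted p = 0.12) and 1.00 ± 0.22 (adjusted p = 0.058). It stood at 83.97, 53.49 and 13.96 TPM in the libraries labelled *fancj*. *BCL2L11*, which encodes the BH3-only activator BIM, stood at 13.39, 10.79 and 7.81 TPM in wild type and 4.84, 2.49 and 1.14 TPM in the libraries labelled *fancj*. Those libraries lay below all of wild type, which was the case for 8.82% of all genes tested. The gene did not pass the edgeR test (-1.96 ± 0.46, adjusted p = 0.066), and DESeq2 called it.

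The anti-apoptotic gene *BCL2L10* (NR13), first known from birds, stood at 42.99, 63.56 and 56.84 TPM in wild type, which is below *MCL1* and far above *BCL2*. It was at its lowest in replicate 2 of *timeless* (19.43 TPM) and of *ddx11* (29.56 TPM). The log2 fold changes were -0.38 in *timeless* (adjusted p = 0.59), -0.36 in *ddx11* (0.65) and 0.24 in the libraries labelled *fancj* (0.74). Of the rest, *BCL2L13* averaged 38.9 TPM in wild type, *BNIP3* 50.7, *BNIP3L* 31.2 and *BIK* 4.13 TPM, and *BCL2L14* and *BCL2L15* stayed under 1 TPM there. *BCL2L15* stood at 0, 2.91 and 1.80 TPM with the *fancj* label, from 0, 17 and 23 counts, against 1, 2 and 1 counts in wild type, and did not pass the test (adjusted p = 0.24).

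Around the family, no gene was called by edgeR among the 16 tested of the apoptosome, the caspases and their inhibitors in any mutant against wild type. The number at an unadjusted p under 0.05 was 1 in *timeless*, 1 in *ddx11* (*CYCS*, cytochrome c, in both) and 0 in the libraries labelled *fancj*, and DESeq2 called 0 in each. Of the death receptor arm that ends at BID, 7 genes were tested in *timeless* and 1 was called. *RIPK1*, a kinase of TNF receptor signalling, fell from 23.59, 25.01 and 26.04 TPM in wild type to 17.78, 13.90 and 11.75 TPM (-0.73 ± 0.16, adjusted p = 0.031). In *ddx11* 0 of 7 and in the libraries labelled *fancj* 0 of 9 were called by edgeR, with 1 and 3 at an unadjusted p under 0.05 and 0 and 3 called by DESeq2. Of all genes, edgeR called 8.20% in *timeless*, 2.62% in *ddx11* and 4.28% with the *fancj* label. At an unadjusted p under 0.05 the shares were 21.7%, 11.1% and 16.9%, and DESeq2 called 12.9%, 4.77% and 11.2%.

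Among 16 tested regulators upstream of the family, 1 was called in *timeless*, where 8.20% of all genes were. It was *E2F1*, a transcription factor of S phase entry, which was lower. *E2F1* stood at 167.02, 193.98 and 140.78 TPM in *timeless* against 340.17, 271.79 and 311.04 TPM in wild type (-0.81 ± 0.17, adjusted p = 0.023). The ranges did not overlap, a separation in this direction seen for 15.7% of all genes tested. In *timeless* 2 of the 16 had an unadjusted p under 0.05, as did 21.7% of all genes. DESeq2 called 2 there, *E2F1* and *FOXO3*, and 12.9% of all genes. With the *fancj* label *E2F1* stood at 160.87, 187.63 and 142.97 TPM and just missed the threshold (-0.86 ± 0.18, adjusted p = 0.05). Those libraries also lay below all of wild type, as was the case for 8.82% of all genes tested. *VDAC1*, a channel of the outer mitochondrial membrane, was called lower in *ddx11* (adjusted p = 0.043) from 2 counts in each *ddx11* library against 3, 128 and 45 counts in wild type, so that its fold change rests on wild-type replicates 2 and 3. In *ddx11* edgeR called 1 of the 16, and 2.62% of all genes. There 2 had an unadjusted p under 0.05, as did 11.1% of all genes, and DESeq2 called 1, and 4.77% of all genes. With the *fancj* label 0 of 16 were called by edgeR, with 3 at an unadjusted p under 0.05 and 3 called by DESeq2 (*E2F1*, *FOXO1* and *FOXO3*). The shares of all genes with that label were 4.28%, 16.9% and 11.2%.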

How the data were processed

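Polyadenylated RNA of 12 DT40 libraries was measured, 3 per line, grouped by the genotype label. The authors aligned reads with Bowtie2 and ran RSEM on GRCg6a with Ensembl 96 annotation (tool versions and strand setting not given in the sources used here), and no replicates were pooled. The deposited expected counts are RSEM estimates, not normalized. TPM, as deposited, was scaled by the authors to effective length and a common library total, so a few abundant genes can move all others. The deposited FPKM values and the authors' gene lengths were not tested; effective length served only the alternative balance. Counts of all pairs of libraries within a line differed beyond sampling noise.

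Expected counts were rounded and tested across all genes in R 4.3.3 with edgeR 4.0.16 (TMM, quasi-likelihood F test, Benjamini-Hochberg). Each fit held the 6 libraries of 2 lines and was limited to genes averaging 1 TPM or more in either line. The SE is the log2 fold change divided by the square root of F. With 3 libraries against 3 the smallest p of an exact permutation test is 0.1, and none was run. Alternatives were 1 TPM in both lines, no TPM limit, filterByExpr, DESeq2 1.42.0 size factors and Wald test, a replicate block from the numbers in the labels, 1 fit of all 12 libraries, a threshold of 0.01 and leaving out each library in turn; the balance was also taken on TMM-scaled counts per kb, without *MCL1* or *BCL2A1* and from averaged log2(TPM + 1). The edgeR step was also tested on simulated counts.

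All 8 members are named; other listed genes are named where called against wild type or, for family genes, where found under their symbol. Like genes are the 2 of highest r per member. The neighbours of *BCL2*, *CYCS*, *FOXO1*, *FOXO3* and the markers were named after their values were seen. The members and lists were chosen with earlier results of these data known. All 8 members matched the GRCg7b gene table by symbol, and no coordinates of it are given. Same-numbered libraries deviated together, with all 3 correlations over 0.1, in 2 of 6 pairs of lines: *timeless* with *ddx11* and *timeless* with the *fancj* label.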

Additional observations from a re-analysis of the deposited data

Results flagged for a closer look

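The difference in *BCL2* between *timeless* and *ddx11* was larger than the spread between libraries, in a direct fit of these 2 lines without wild type. *BCL2* stood at 8.43, 8.87 and 11.57 TPM in *timeless* and at 4.91, 2.83 and 2.85 TPM in *ddx11*, with a log2 fold change of 1.62 between them (edgeR, adjusted p = 0.015, higher in 3 of 3 *timeless* libraries than in any of *ddx11*). Under the replicate block the adjusted p was 0.0069. With a library left out the call held in 3 of 6 fits, with an adjusted p between 0.011 and 0.087.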

How the results depend on the processing

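The log2 fold change of *BCL2* in *timeless* was 2.00 to 2.35 with a library left out and 2.17 to 2.23 otherwise, called throughout. The number of members called against wild type was 2 in *timeless* (from 1) with no TPM limit or DESeq2, 1 in *ddx11* (from 0) with either, and in the libraries labelled *fancj* (from 1) 2 with no TPM limit, 2 with filterByExpr, 3 with DESeq2, 0 with the replicate block and 0 at an adjusted p under 0.01. Leaving out a library gave 0 to 1 in *ddx11*, 1 to 2 in *timeless* and 0 to 3 in the *fancj* label. For *timeless* against *ddx11* (from 1) it was 2 with DESeq2, 3 with the replicate block, 0 at an adjusted p under 0.01 and 0 to 2 with a library left out, and for the *fancj* label against *timeless* 1 with DESeq2 (from 0). The replicate block changed no other member's call. The difference in balance from wild type was -0.89 in *timeless* and -0.97 in the *fancj* label without *MCL1* and 0.29 in *timeless* with averaged logs; with a library left out it ran from -0.62 to -0.16, from -0.99 to -0.48 in *ddx11* and from -0.80 to -0.34 in the *fancj* label. Of the log2 fold changes of single members, 11 changed sign, under 18 settings in all, none of them called. With no TPM limit *BID* was -0.039 in the *fancj* label. With a library left out, *MCL1* ran from -0.326 to 0.093 and *BOK* from -0.297 to 0.011 in *ddx11*, and *MCL1* from -0.009 to 0.409 and *BID* from -0.082 to 0.141 in the *fancj* label. For *timeless* against *ddx11*, *BCL2L1* ran from -0.534 to 0.046, *BOK* from -0.509 to 0.078, *BID* from -0.063 to 0.185 and *BMF* from -2.28 to 0.123. For the *fancj* label, *BCL2L1* ran from -0.337 to 0.151 and *BOK* from -0.507 to 0.073 against *timeless*, and *BAK1* from -0.153 to 0.252 against *ddx11*. The cause was not tested. All genes called numbered 955, 301 and 506 in the 3 mutants against wild type, and 282 to 1499, 107 to 547 and 76 to 1319 under other settings, or 349 to 957, 98 to 462 and 45 to 864 with a library left out. Between mutants, the 601 (*timeless* against *ddx11*), 102 (*fancj* label against *timeless*) and 93 (*fancj* label against *ddx11*) became 182 to 1629, 6 to 847 and 9 to 836, or 189 to 676, 0 to 242 and 3 to 491 with a library left out. Depth limits *BMF* and *BCL2A1* most, with 7 to 188 and 0 to 2 counts per library. With 3 libraries a line, a member that missed the threshold is not shown to be unaltered.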
